A study of Mus musculus with 4 samples.

Results

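The tissue kallikreins expressed in epidermis and their inhibitor Spink5 were followed in back skin of mice with an epithelial deletion of Stim1 and Stim2, which encode calcium sensors, and of floxed controls. The set holds 10 of the 56493 genes in the deposited table, namely 9 kallikrein genes of chromosome 7 (Klk5, Klk6, Klk7, Klk8, Klk9, Klk10, Klk11, Klk13 and Klk14) and Spink5. The genes were selected by name, with the values of the knockout and control libraries already known, so that every difference between genotypes in these 10 genes is given as a description without a p-value.

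The knockout group (cKO) had 2 libraries from mice in which Stim1 and Stim2 were deleted in epithelium by a Cre recombinase under the keratin 14 promoter, which is active in basal keratinocytes and in the follicles and glands that share their origin. The control group had 2 libraries from mice with floxed Stim1 and Stim2 alleles, which both groups carry. Age, sex and the Cre status of the controls are not given in the sources used here, and nothing says that 2 libraries of a group came from separate mice, so their spread may be technical. Epidermis was separated from dermis, RNA was counted from the 3′ end of transcripts, and values are raw counts per gene or CPM. CPM are counts per 1000000 of an effective library size, which is the sum over the genes that passed the filter on low counts times its TMM scaling factor (88979.5 to 313144), and not the library total.

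Kallikreins are secreted serine proteases that are made as inactive precursors by the upper, granular keratinocytes and act in the spaces of the cornified layer. KLK5 can activate itself and then activates KLK7 and KLK14. Between them, KLK5 and KLK7 cut the corneodesmosome proteins corneodesmosin, desmoglein 1 and desmocollin 1, so that surface cells can be shed. Spink5 encodes LEKTI, a chain of Kazal-type inhibitor domains that holds KLK5, KLK7 and KLK14 in check, and its loss causes the human skin disease Netherton syndrome.

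Upstream sequences are shown for Klk6 and Klk13, the members counted in both cKO libraries and in neither control library, and for Klk7, the most abundant kallikrein of the same cluster. Each is the stretch of 250 bases before a RefSeq transcription start in GRCm38.p6, a build other than that of the counts, and 9 of the 10 members, all but Spink5, had an entry, with 11 start sites in all. Capitals mark matches on either strand to GGAAA (the core recognised by NFAT factors, read as TTTCC on the other strand) and CACCC (a core recognised by Krüppel-like factors, read as GGGTG on the other strand).
Klk6, first listed start site, chr7:43824294-43824543, + strand: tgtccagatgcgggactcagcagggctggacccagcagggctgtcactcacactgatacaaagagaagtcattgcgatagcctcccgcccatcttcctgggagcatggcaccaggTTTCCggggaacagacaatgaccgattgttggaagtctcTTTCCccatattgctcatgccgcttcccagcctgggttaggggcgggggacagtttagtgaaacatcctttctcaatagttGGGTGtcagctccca
Klk6, the other start site, chr7:43825200-43825449, + strand: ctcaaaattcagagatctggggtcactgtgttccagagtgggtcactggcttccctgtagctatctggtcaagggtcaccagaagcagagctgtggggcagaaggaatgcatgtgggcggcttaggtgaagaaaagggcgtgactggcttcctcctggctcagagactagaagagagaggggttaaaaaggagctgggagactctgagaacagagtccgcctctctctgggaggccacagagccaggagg
Klk13, chr7:43712317-43712566, + strand: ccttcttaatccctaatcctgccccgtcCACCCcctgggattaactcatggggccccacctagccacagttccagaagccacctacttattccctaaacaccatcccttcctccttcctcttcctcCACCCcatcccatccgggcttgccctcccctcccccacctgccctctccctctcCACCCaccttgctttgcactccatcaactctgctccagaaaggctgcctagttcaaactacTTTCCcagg
Klk7, chr7:43811044-43811293, + strand: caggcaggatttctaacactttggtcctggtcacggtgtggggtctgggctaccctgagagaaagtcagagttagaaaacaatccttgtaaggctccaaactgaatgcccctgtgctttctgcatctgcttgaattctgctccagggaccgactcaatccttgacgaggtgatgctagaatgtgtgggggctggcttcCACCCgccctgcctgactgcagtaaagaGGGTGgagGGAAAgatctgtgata

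The matches shown do not overlap one another. GGAAA was found in 8 of the 11 windows of the members and in 55.6% of 32851 windows of the same length upstream of all genes, and CACCC was found in 8 of 11 windows and in 52.0% of all. TATAAA (12.4% of all windows), TGANTCA (the AP-1 site, 6.75%) and ACCGGT (the core of the grainyhead site, 1.86%) had 0 matches in the 11 windows. The first Klk6 window held GGAAA at 2 places and CACCC at 1, the other Klk6 window held no match, Klk13 held GGAAA once and CACCC at 3 places, and Klk7 held GGAAA once and CACCC at 2 places. Both motifs were thus present upstream of Klk7 as well as of Klk6 and Klk13. The share of G and C was 55.2% and 55.6% in the Klk6 windows, 57.6% in Klk13 and 52.4% in Klk7, beside a median of 52.4% for all genes.

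The libraries were shallow, with total counts of 118858 to 322426, and 4243 genes passed the filter on low counts. Control replicate 1 stood apart in markers of the granular layer, which summed to 2022 CPM there and to 9440 to 22902 CPM in the other libraries, so for the tested members with counts in the controls the log2 change is also given with it left out. Klk5, Klk6, Klk7, Klk8, Klk9, Klk10, Klk11 and Spink5 passed the filter, 8 of the 10 members, and Klk13 and Klk14 did not. Counts of the targeted Stim1 were 23 and 6 in cKO and 24 and 62 in control, and those of Stim2 were 0 and 1 against 3 and 18. In CPM, Stim1 was at 93.0 and 67.4 against 128 and 198, so its transcript was lower but still counted in both knockouts, and Stim2 was at 0 and 11.2 against 16 and 57.5. Which exons were removed is not given in the sources used here, so counts from the 3′ end do not check the deletion. In edgeR's quasi-likelihood test 28 genes were higher (0.66% of those tested) and 8 lower (0.189%) in the knockouts when the adjusted p had to be under 0.05, or 26 and 15 when scaled by library totals alone, which moved the median log2 change of all tested genes from 0.01 to -0.24. Of the 8 tested members 1, Klk6, was among the higher genes and 0 among the lower. Because the same contrast chose the members, nothing is read from that count.

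In CPM, 7 of the 9 kallikreins had both cKO libraries above both control libraries (Klk6, Klk7, Klk8, Klk9, Klk10, Klk11 and Klk13). Klk5 overlapped between the groups, and Klk14 had no count. Among the tested members 6 were separated in this way, where 18.9% of all tested genes were, and 0 members had both cKO libraries below both controls, where 19.6% of all tested genes did. Nothing is read from these shares for genes chosen on this contrast. Without control replicate 1 the same 7 kallikreins stood above the remaining control library, and without control replicate 2 Klk5 joined them to make 8. These separations take no account of counting error, and some rest on few counts in a library. That of Klk11 also depends on the TMM scaling. As a share of library totals, its 6 of 118858 counts in cKO replicate 2 were below its 18 of 322426 in control replicate 2. Spink5 lay within the range of the controls. The median log2 change of the 7 tested kallikreins was 1.63, beside 0.01 for all genes tested. Among the 7, Klk6, Klk8, Klk9 and Klk10 passed the filter only through their counts in cKO, so nothing is read from this median.

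**Figure D1:**
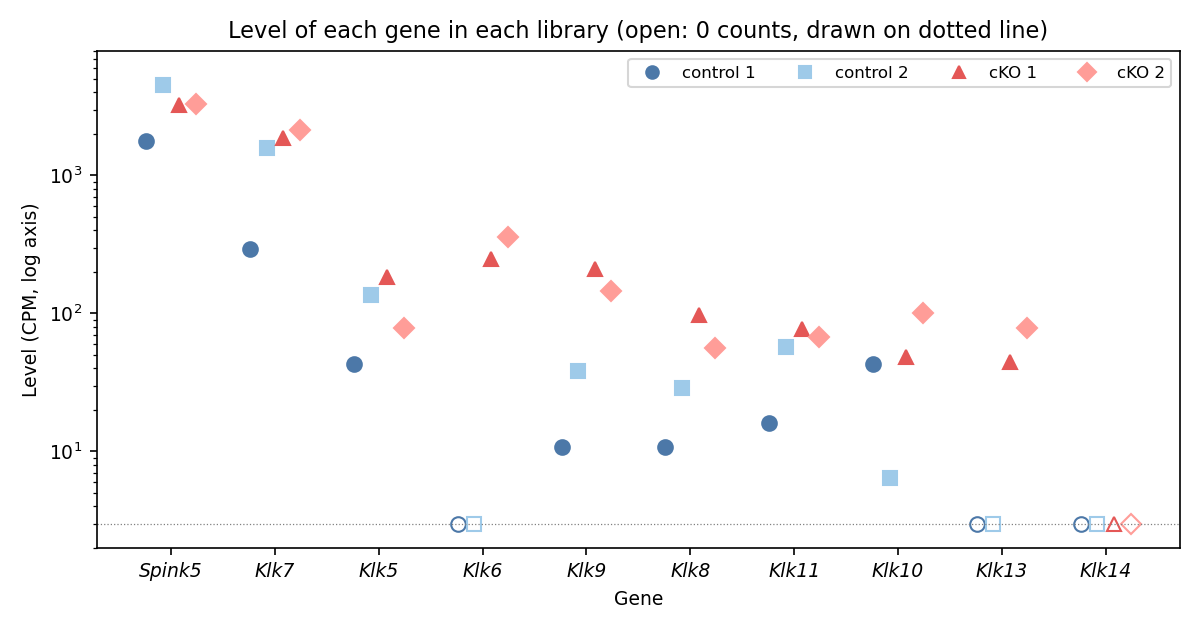
Level of each gene (CPM, log axis) in each of the 4 libraries, with open symbols for 0 counts drawn on the dotted line. Klk6 and Klk13 have open symbols for both controls, and control replicate 1 lies below control replicate 2 for Spink5, Klk7, Klk5, Klk9, Klk8 and Klk11 but not for Klk10.

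Spink5 (ENSMUSG00000055561, plus strand of chromosome 18, 44096302 to 44155568) was counted 796 and 293 times in the knockouts, 333 and 1424 times in the controls. Its level was 3219 and 3293 CPM in cKO, a mean of 3256 ± 52.5 (SD, n = 2), and 1777 and 4547 CPM in control, a mean of 3162 ± 1959 (SD, n = 2). Both cKO values fell between the control values. The log2 change of 0.04 (SE 0.49) was far smaller than the 2.56-fold gap between the control libraries, and leaving out control replicate 1 or 2 moved it to -0.48 or 0.89. Scaled by library totals alone it was -0.24, equal to the median of all tested genes under that scaling.

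Klk5 (ENSMUSG00000074155, chromosome 7, 43491395 to 43500605), the protease placed at the head of the cascade, was counted 45 and 7 times in the knockouts, 8 and 43 times in the controls. Levels were 182 and 78.7 CPM against 42.7 and 137 CPM, so that the groups overlapped. The log2 change was 0.56 (SE 0.62), and it was -0.29 without cKO replicate 1, 0 without control replicate 1 and 1.68 without control replicate 2. This difference between the groups was smaller than the spread between replicates.

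Klk7 (ENSMUSG00000030713, chromosome 7, 43460718 to 43465783), the chymotrypsin-like protease of the cornified layer, was counted 458 and 191 times in the knockouts, 55 and 493 times in the controls. Levels were 1852 and 2147 CPM in cKO and 293 and 1574 CPM in control, means of 1999 ± 208 and 934 ± 906 (SD, n = 2 in each group). Both cKO libraries were above both controls, but control replicate 2 came close to cKO replicate 1, and the controls differed 5.36-fold from each other. The cKO mean was 2.14 times the control mean, with a log2 change of 1.09 (SE 0.61). This value was 0.34 without control replicate 1 and 2.78 without control replicate 2, so its size rests on which control library is used.

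Klk14 (ENSMUSG00000044737, chromosome 7, 43339842 to 43344960), a trypsin-like protease that LEKTI also inhibits, had 0 counts in all 4 libraries. The limit of 3 counts that a count of 0 allows equals 12.1 and 33.7 CPM in cKO replicates 1 and 2 and 16 and 9.58 CPM in control replicates 1 and 2. Levels below these could not be seen. Exons of Klk14 share 287 bases with 2310002F09Rik, a gene of the opposite strand, at the 3′ end of Klk14. How reads in shared bases were counted is not given in the sources used here. The count of 0 may thus leave out reads from that end, and the limits may then be too low.

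Klk6 (ENSMUSG00000050063, chromosome 7, 43473923 to 43481454), which encodes a trypsin-like kallikrein, was counted 61 and 32 times in the knockouts and 0 times in the controls. The exact 95% Poisson intervals of the cKO counts ran from 46.7 to 78.4 and from 21.9 to 45.2, and that of a count of 0 reached 3.69. Levels were 247 and 360 CPM in cKO, a mean of 303 ± 79.9 (SD, n = 2). Set against 3 counts in each control library, the cKO mean was 23.7-fold higher, with counting error in cKO left out. The value was 28.1-fold without cKO replicate 1 and 19.3-fold without cKO replicate 2. Its upstream sequences are the first of those printed above.

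Klk13 (ENSMUSG00000054046, chromosome 7, 43361991 to 43376958), which encodes another trypsin-like kallikrein, shared this pattern at a lower level. It was counted 11 and 7 times in the knockouts and 0 times in the controls, or 44.5 and 78.7 CPM in the cKO libraries. Against 3 counts per control library the cKO mean was 4.81-fold higher, or 6.15-fold without cKO replicate 1 and 3.48-fold without cKO replicate 2. These values leave out counting error in cKO. The lower Poisson limits of the Klk13 counts in cKO were 5.49 and 2.81, so the size of the change is known only roughly.

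Klk9 (ENSMUSG00000047884, chromosome 7, 43441315 to 43446181), which encodes a chymotrypsin-like kallikrein, was counted 52 and 13 times in the knockouts, 2 and 12 times in the controls. Levels were 210 and 146 CPM in cKO against 10.7 and 38.3 CPM in control. The lowest cKO library was well above the highest control library, and the cKO mean was 7.27 times the control mean. The log2 change was 2.76 (SE 0.65), with 2.23 without control replicate 1 and 4.02 without control replicate 2.

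Klk8 (ENSMUSG00000064023, chromosome 7, 43447001 to 43453250), which encodes the trypsin-like protease neuropsin, was counted 24 and 5 times in the knockouts, 2 and 9 times in the controls. Levels were 97.0 and 56.2 CPM against 10.7 and 28.7 CPM, without overlap. The log2 change was 1.91 (SE 0.81), and it was 1.45 without control replicate 1 and 2.83 without control replicate 2. Exons of Klk8, Klk9 and Klk14 share 382, 904 and 287 bases with 2310002F09Rik, a long non-coding RNA gene of the opposite strand, and the sources used here do not say if counting was stranded. That gene had 3 counts over all libraries.

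Klk11 (ENSMUSG00000067616, chromosome 7, 43424028 to 43428687), a kallikrein also named hippostasin, was counted 19 and 6 times in the knockouts, 3 and 18 times in the controls. Its levels of 76.8 and 67.4 CPM in cKO lay above 16 and 57.5 CPM in control, by a margin smaller than the gap between the controls. As a share of library totals, cKO replicate 2 was below control replicate 2. The log2 change was 0.90 (SE 0.76), and it was 0.34 without control replicate 1 and 2.15 without control replicate 2. Klk10 (ENSMUSG00000030693, chromosome 7, 43430459 to 43434834), its neighbour, was counted 12 and 9 times in the knockouts, 8 and 2 times in the controls. Levels were 48.5 and 101 CPM against 42.7 and 6.39 CPM, so that cKO replicate 1 barely exceeded control replicate 1. Its log2 change of 1.63 (SE 0.97) was 0.73 with control replicate 2 left out and 3.36 with control replicate 1 left out. Klk10 was the sole member with counts in both controls that was higher in control replicate 1 than in control replicate 2.

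Levels of different genes were compared per kilobase of the feature length in the table. In control the order was Spink5 (661 ± 409 CPM per kb, SD, n = 2), Klk7 (493 ± 478), Klk5 (67.4 ± 50.1), Klk11 (25 ± 20.0), Klk10 (17.9 ± 18.7), Klk9 (16.6 ± 13.2) and Klk8 (12.8 ± 8.30), followed by Klk6, Klk13 and Klk14 at 0. Among the genes with counts, the ranges of neighbours in this order overlapped except between Klk7 and Klk5. In cKO the order was Klk7 (1055 ± 110), Spink5 (680 ± 11), Klk6 (200 ± 52.8), Klk9 (121 ± 30.7), Klk5 (97.5 ± 54.7), Klk10 (54.5 ± 27.1), Klk8 (49.8 ± 18.8), Klk11 (49.2 ± 4.53) and Klk13 (26.8 ± 10.5), with Klk14 at 0. There the ranges of Klk7 and Spink5, of Spink5 and Klk6, of Klk6 and Klk9, and of Klk11 and Klk13 did not overlap, and those of the neighbours from Klk9 to Klk11 did. Counting from the 3′ end yields few extra counts for long transcripts, so division by length lowers the place of Spink5, whose feature length is 4785 bases against 1271 to 2297 for the kallikreins. In CPM without this division Spink5 was above Klk7 in every library, at 3219 and 3293 against 1852 and 2147 in cKO. The place of Klk7 above Spink5 in cKO thus comes from the division by length.

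The summed kallikreins were counted 682 and 270 times in the knockouts, 78 and 577 times in the controls. These were 0.242% (95% Wilson interval 0.224% to 0.260%) and 0.227% (0.202% to 0.256%) of all counts in cKO and 0.0389% (0.0312% to 0.0486%) and 0.179% (0.165% to 0.194%) in control. The intervals cover counting error only, and those of the controls lay apart from each other and below those of cKO. In CPM the sums were 2896 ± 196 in cKO and 1129 ± 1009 in control (SD, n = 2 in each group), a log2 ratio of 1.36 that was 0.65 without control replicate 1 and 2.81 without control replicate 2. Without Klk7 the sums were 897 ± 12.6 and 195 ± 103 CPM, a ratio of 4.59 that was 3.34 without control replicate 1 and 7.31 without control replicate 2.

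A ratio within a library needs no scaling between libraries. The summed kallikreins had 85.7 (exact 95% interval 77.2 to 95) and 92.2 (77.8 to 109) counts per 100 Spink5 counts in the cKO libraries and 23.4 (18.1 to 30.1) and 40.5 (36.7 to 44.7) in the controls. The cKO mean of 88.9 ± 4.58 was 2.78 times the control mean of 32.0 ± 12.1 (SD, n = 2), and both cKO libraries were above both controls. The log2 ratio of 1.48 was 1.13 without control replicate 1 and 1.92 without control replicate 2. Leaving Klk7 out, the ratio was 28.1 and 27.0 per 100 Spink5 counts in cKO and 6.91 and 5.90 in control, so that the controls, which differed widely in level, were close on this measure.

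**Figure D2:**
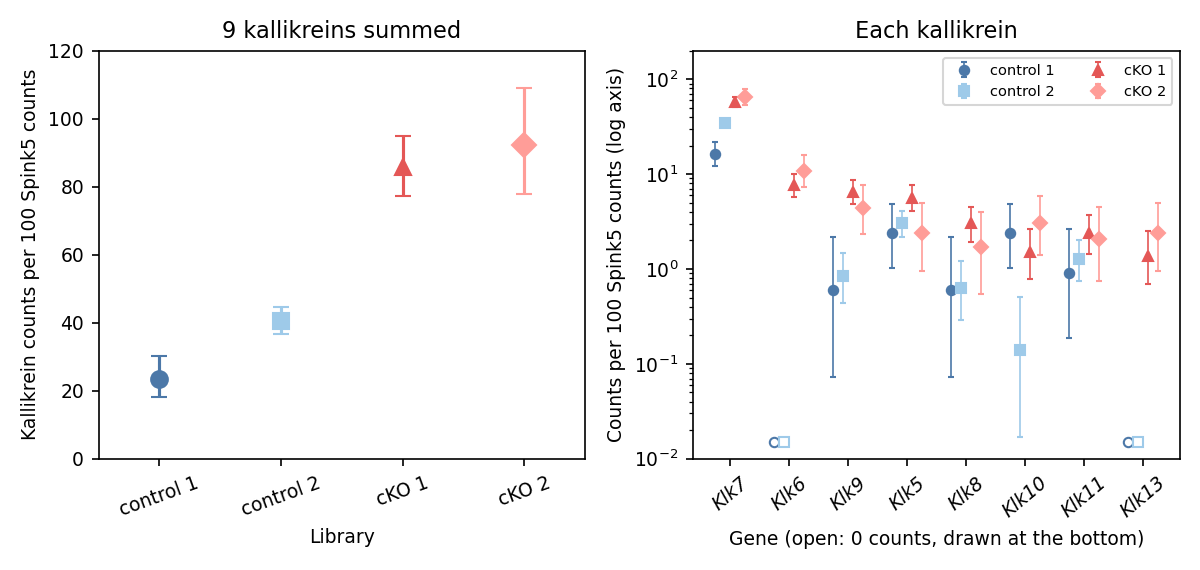
Left, counts of the 9 kallikreins per 100 Spink5 counts in each library with exact 95% intervals of counting error. Right, the same for each kallikrein with a count (log axis), where Klk6 and Klk13 have open symbols for 0 counts in the controls. The values of Klk7, Klk8, Klk9 and Klk11 are higher in both cKO libraries, with overlapping intervals for Klk8 and Klk11, and those of Klk5 and Klk10 overlap.

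Relative to Spink5, Klk9 was 6.53 and 4.44 per 100 in cKO and 0.601 and 0.843 in control, a ratio of means of 7.60. Klk8 was 3.02 and 1.71 against 0.601 and 0.632, a ratio of 3.83. Klk7 was 57.5 and 65.2 against 16.5 and 34.6, a ratio of 2.40, and Klk11 was 2.39 and 2.05 against 0.901 and 1.26, a ratio of 2.05. These kallikreins were separated between the groups. Klk5, at 5.65 and 2.39 against 2.40 and 3.02, and Klk10, at 1.51 and 3.07 against 2.40 and 0.140, were not, so the separation of Klk10 seen in CPM did not hold against Spink5.

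Klk7 gave most of the kallikrein counts in every library, with 67.2% (exact 95% interval 63.5% to 70.7%) and 70.7% (64.9% to 76.1%) in cKO and 70.5% (59.1% to 80.3%) and 85.4% (82.3% to 88.2%) in control. Klk6 gave 8.94% (6.91% to 11.3%) and 11.9% (8.25% to 16.3%) in cKO. It had 0 of 78 and 0 of 577 counts in control, which allows shares of up to 3.85% and 0.520%. Klk9 gave 7.62% and 4.81% in cKO and 2.56% and 2.08% in control, and the interval of control replicate 1 (0.312% to 8.96%) included both cKO values.

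**Figure D3:**
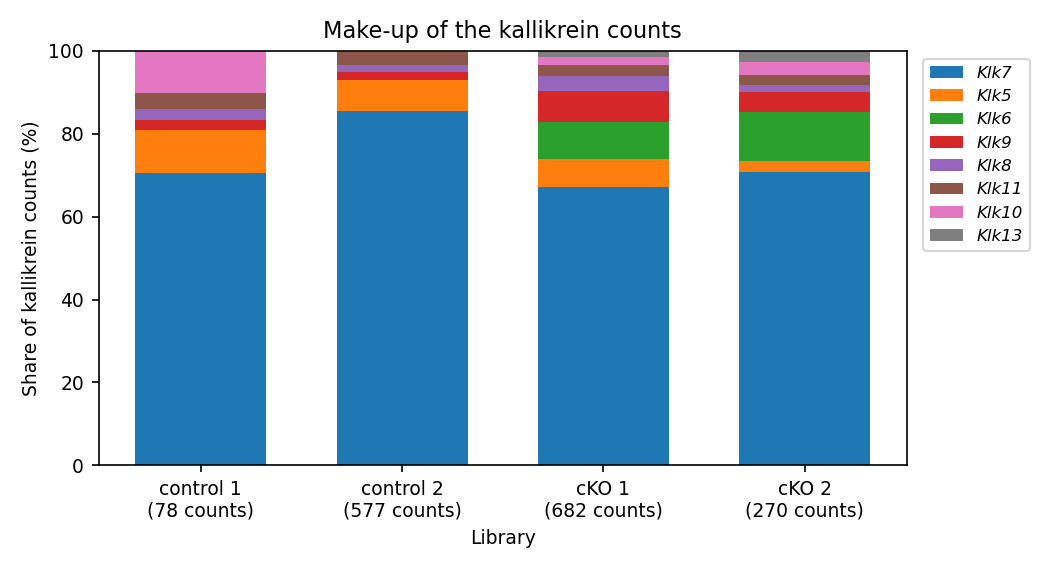
Share of the summed kallikrein counts (%) that each gene gave in each library, with the number of counts under the bars. Klk7 is the largest part of every bar, and Klk6 and Klk13 appear in the cKO bars alone.

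The 9 kallikreins lie on the plus strand within 161 kb of chromosome 7 (43339842 to 43500605 in the table, whose build is GRCm39 per the submitters' processing notes). In order of position they are Klk14, Klk13, Klk11, Klk10, Klk9, Klk8, Klk7, Klk6 and Klk5. Of the 4 other genes listed in the interval, Klk12 among them, 1 had any count, the antisense gene named above. Klk6 lies between Klk7, 8.14 kb away, and Klk5, 9.94 kb away, both of which had counts in every control library. Klk13 lies between the undetected Klk14, 17 kb away, and Klk12, and is 47.1 kb from Klk11. Klk6 and Klk13, the members counted in cKO alone, were thus not next to each other, while Klk13 and Klk14, both without a count in the controls, were adjacent members. The targeted Stim1 is on the same chromosome, 58.4 Mb from the cluster.

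**Figure D4:**
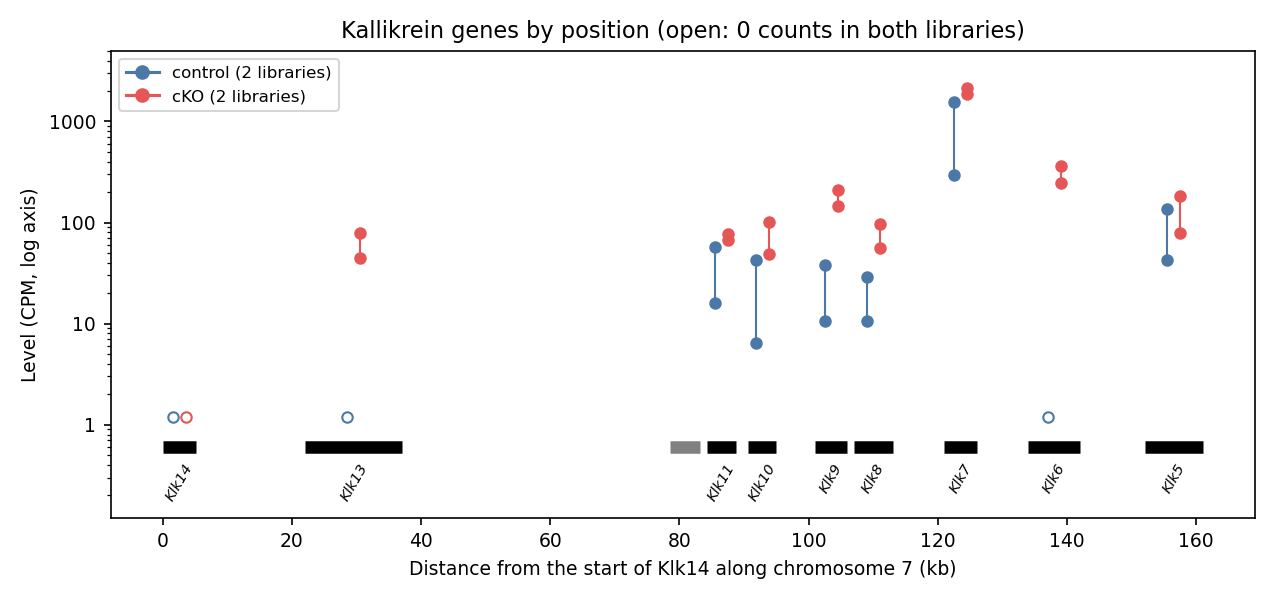
Kallikrein genes by distance from the start of Klk14 (kb), drawn as blocks to scale with Klk12 in grey, and above each the level in the 2 libraries of each group (CPM, log axis) joined by a line. Klk6 has an open control symbol between Klk7 and Klk5, which have counts in both groups.

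Reads shared between near-identical genes can be divided wrongly, so the members were searched against GENCODE M21 transcripts. At 95% identity over at least 150 bases 0 other genes matched Klk5, Klk6, Klk7, Klk9, Klk10, Klk11, Klk13 or Spink5. Klk8 and Klk14 each matched 1, the overlapping 2310002F09Rik as modelled in that release. The best match of Klk6 was Klk5, at 70.7% identity over 174 bases.

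The other tissue kallikreins of the chromosome, 17 genes that include Klk1 and its Klk1b relatives, Klk4, Klk12 and Klk15, had 0 counts in every library. Over 6 lists of related genes outside the members, 80 were in the table and 25 were tested. With edgeR 2 of the 25 were higher and 0 lower in the knockouts by the same threshold, beside 0.66% and 0.189% of all tested genes; at an unadjusted p under 0.05 the numbers were 7 and 2, and DESeq2 called 3 higher and limma-voom 1, with 0 lower in both. The median log2 change of the 25 was 0.48. The lists were drawn up with earlier results of these data known, so nothing is read from these numbers or from the median.

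Other serine protease inhibitors of epithelia had 5 of 18 genes tested, with none called and a median log2 change of -0.86; all 5 values were below 0. Serpina12, which encodes the KLK7 inhibitor vaspin, was counted 58 and 5 times in the knockouts, 38 and 198 times in the controls, which gave a log2 change of -1.41 (SE 0.63, edgeR adjusted p 0.560). It passed the threshold when cKO replicate 1 was left out, at -2.95 (edgeR adjusted p 0.0174), and over the alternatives the adjusted p ran from 0.0164 with a crossed block (replicate numbers paired across the groups in reverse, chosen after seeing the data) to 1 with DESeq2. Spint2, an inhibitor of membrane-anchored serine proteases, was counted 101 and 52 times in the knockouts, 164 and 283 times in the controls, or 408 and 584 CPM against 875 and 904 CPM. The groups did not overlap, and its log2 change was -0.86 (edgeR adjusted p 0.638). Its relative Spint1 was at 20.2 and 33.7 CPM against 53.4 and 51.1 CPM (edgeR adjusted p 0.880).

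Upstream and membrane-anchored proteases had 5 of 18 genes tested, none of them called, and a median of 0.97. The transmembrane protease gene Tmprss13 was counted 53 and 10 times in the knockouts, 3 and 27 times in the controls, which gave a log2 change of 1.63 (edgeR adjusted p 0.494). This was 0.97 without control replicate 1 and 3.36 without control replicate 2 (edgeR adjusted p 0.998 and 0.0558). Its relative Tmprss11f was at 150 and 124 CPM against 37.4 and 95.8 CPM (edgeR adjusted p 0.716). Furin, a proprotein convertase, was at 52.6 and 169 CPM against 74.7 and 31.9 CPM, with overlap between the groups (edgeR adjusted p 0.838).

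The list of corneodesmosome proteins cut by KLK5, KLK7 or both had all 5 genes tested, with none called and a median of 0.06. Dsg1a, a desmoglein 1 gene, was counted 257 and 81 times in the knockouts, 430 and 1020 times in the controls, or 1039 and 910 CPM against 2295 and 3257 CPM. Both cKO libraries were below both controls, and the log2 change was -1.51 (SE 0.43, edgeR adjusted p 0.184). Over the alternatives its adjusted p ran from 0.00067 with the crossed block to 0.843 without control replicate 2. The desmocollin 1 gene Dsc1 was at 113 and 67.4 CPM against 16 and 99.0 CPM, and Dsg1c was at 72.8 and 33.7 CPM against 64.0 and 73.5 CPM, with overlap in both. The mouse has several desmoglein 1 genes of similar sequence, and how reads shared between them were counted is not given in the sources used here.

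Other substrates, receptors and effectors had 2 of 10 genes tested, of which Flg, whose product filaggrin is cut during cornification, was higher in cKO. Flg was counted 2218 and 479 times in the knockouts, 20 and 98 times in the controls, which gave a log2 change of 5.07 (SE 0.62, edgeR adjusted p 0.000593), or 4.52 without control replicate 1 and 6.08 without control replicate 2. Smpd1, which encodes acid sphingomyelinase, was at -0.20 on the log2 scale (edgeR adjusted p 0.995). Other proteases of cornification, listed with the inhibitor Cst6, had 8 of 12 genes tested, all 8 with values above 0, a median of 1.5 and 1 called. Casp14, the caspase of cornifying cells, was counted 48 and 11 times in the knockouts, 0 and 2 times in the controls (edgeR adjusted p 0.0123). It passed the count filter only through its counts in cKO. With the counts of each group pooled and divided by effective library size, the ratio of cKO to control was 43.9 (exact 95% interval 11.6 to 371, counting error only). Over the alternatives its adjusted p ran from 1.39e-07 with cKO replicate 2 left out to 0.348 with limma-voom. Cst6 was counted 1007 and 1426 times in the knockouts, 435 and 642 times in the controls, which gave a log2 change of 2.20 (edgeR adjusted p 0.147). It passed the threshold with DESeq2 (adjusted p 0.00926), without a count filter (0.00689), with the crossed block (1.6e-06) and without cKO replicate 1 (2.83, adjusted p 0.000388), and it was 0.90 (adjusted p 0.838) without cKO replicate 2. Asprv1, an aspartic protease that processes filaggrin, and Ctsl, a lysosomal cysteine protease, had log2 changes of 1.97 and 1.71 (edgeR adjusted p 0.298 and 0.287). Asprv1 passed without a count filter (edgeR adjusted p 0.0131), with the crossed block (1.47e-07), without cKO replicate 2 (2.42, 0.00264) and without control replicate 2 (3.60, 0.000827), and was at 1.25 (0.940) without control replicate 1. Ctsl passed with the crossed block (edgeR adjusted p 0.00363), without cKO replicate 1 (1.92, 0.0438) and without control replicate 2 (2.92, 0.027), and was at 1.14 (0.998) without control replicate 1.

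Kallikrein counts were also set against marker lists of keratinocyte layers, since in bulk epidermis fewer cells of a type and less RNA per cell cannot be told apart. All 11 granular markers had counts, and their sum was 22902 and 12003 CPM in cKO and 2022 and 9440 CPM in control, with 3 of 11 tested genes called higher. The spinous list, 6 genes, summed to 15600 and 10598 CPM against 7556 and 16060 CPM, and the basal list, 6 genes, to 8613 and 6125 CPM against 5768 and 4630 CPM. Kallikreins had 12 and 25.3 counts per 100 granular counts in cKO and 20.6 and 19.5 in control, so that the groups overlapped; with Flg left out of the list, an alternative chosen after seeing the data, the values were 19.8 and 45.8 against 21.7 and 20.2. Against the spinous list they were 17.7 and 28.6 in cKO and 5.51 and 11.5 in control, without overlap. Against the basal list they were 32.0 and 49.5 against 7.22 and 39.8. The separation of the groups in summed kallikreins thus held against Spink5 and the spinous list and did not hold against the granular or basal list.

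**Figure D5:**
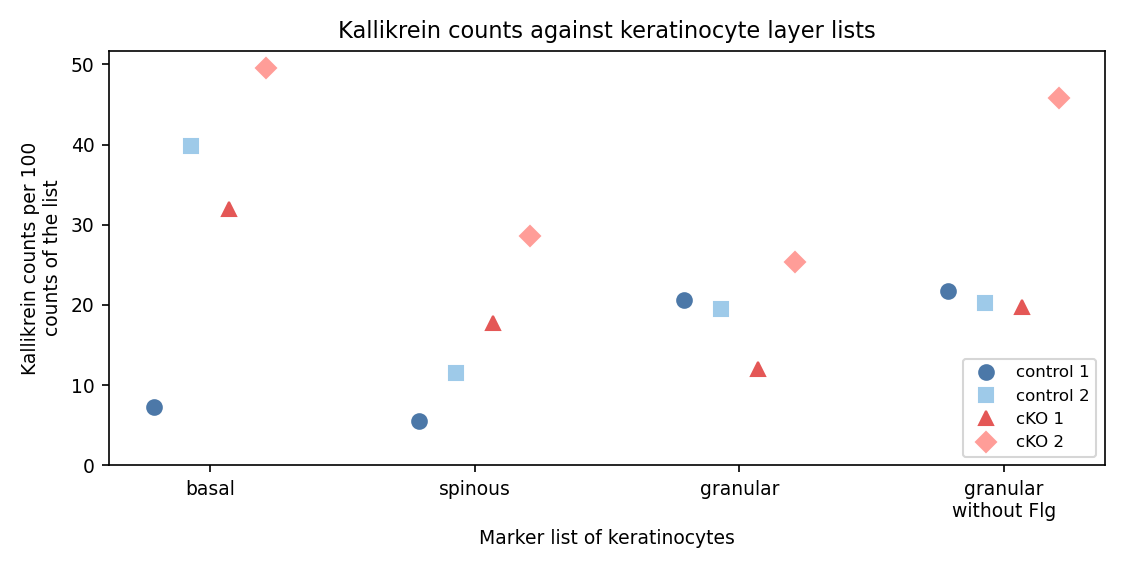
Summed kallikrein counts per 100 counts of each keratinocyte marker list (vertical axis) in each library. The cKO libraries are both above the controls for the spinous list and lie around or across them for the other lists.

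Spink5 behaved otherwise against the granular and spinous lists. Its counts per 100 granular counts were 14.1 and 27.4 in cKO and 87.9 and 48.2 in control, with both cKO libraries lower. With Flg left out of the list they were 23.1 and 49.7 against 92.8 and 49.8, so that cKO replicate 2 and control replicate 2 were nearly equal. Per 100 spinous counts they were 20.6 and 31.1 against 23.5 and 28.3, with overlap. Per 100 basal counts they were 37.4 and 53.8 against 30.8 and 98.2, with overlap as for the kallikreins. The 5 tested genes with levels most like those of Spink5 over the 4 libraries, by Euclidean distance of centred log2(CPM + 2), were Ttc39c, Nrtn, Cyfip2, Myo10 and Sbsn, at distances of 0.0974 to 0.152. Of these Sbsn, which encodes the suprabasal protein suprabasin and is in the spinous list, was counted 795 and 291 times in the knockouts, 317 and 1246 times in the controls. Among the kallikreins Klk5 was nearest to Spink5, at 0.987, with 839 of 4240 other tested gene names nearer, and Klk6 was farthest, at 7.11, with 4234 nearer.

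Markers of other cell types also differed between the libraries. Skeletal muscle markers, 11 of 11 with a count, summed to 44.5 and 135 CPM in cKO and 1483 and 1051 CPM in control, and hair shaft and inner root sheath markers, 5 of 9 with a count and Krt27, Krt31, Krt33a and Krt33b at 0, to 550 and 416 CPM against 1628 and 1632 CPM. Both were lower in cKO than in either control. With edgeR 4 of the 7 tested muscle markers were called lower in cKO, and the median log2 change of the 7 was -6.46. Of the 3 tested hair markers 0 were called. The part of both lists in the kallikrein values was not tested. Langerhans cell (1444 and 3608 CPM against 4029 and 2315 CPM), T cell (263 and 247 against 368 and 284), sebocyte (805 and 2225 against 966 and 808), fibroblast (52.6 and 775 against 272 and 150) and melanocyte lists (137 and 427 against 326 and 86.2) were present at low to moderate levels. Of these the T cell sums were lower in both cKO libraries and the others overlapped. Of the 5 endothelial markers Cdh5, Cldn5, Kdr and Tie1 were at 0 in all libraries.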

How the data were processed

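Libraries were made from epidermal RNA with a 3′ transcriptome kit and adapted to an MGI sequencer, per the labels. The submitters' processing notes name Trim Galore 0.6.7, Trimmomatic 0.39, cutadapt 3.7, STAR 2.7.10a, featureCounts 2.0.1 and GRCm39. The authors deposited raw counts per gene. Collapsing of molecular identifiers, use of strand and handling of multiply aligned reads are not given in the sources used here, so PCR copies may be counted.

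The titles give the genotype of the 4 libraries. Counts were fitted with edgeR 4.0.16 (R 4.3.3): filterByExpr (minimum count 10, minimum total 15), TMM scaling (factors 0.833 to 1.12), glmQLFit and glmQLFTest on genotype alone, and Benjamini-Hochberg adjustment over 4243 genes at 0.05. Standard errors are the size of the log2 change over the root of F. On counts simulated for 4243 genes the fit recovered at most 39.0% of planted log2 fold changes of 2 and at most 85.5% of those of 4, and no more than 7.14% of calls fell on unchanged genes. Where both control libraries had 0 counts and cKO had counts, the cKO mean is set against 3 counts per control library. That ratio leaves out counting error in cKO. Intervals are 95% Wilson or exact (scipy 1.17.1). Similar transcripts were sought with blastn 2.17.0.

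The members and lists were chosen with earlier results of these data known, and 1 gene of the related lists is not reported here. Named beside the members are called genes of each related list and up to 3 further tested genes per list that changed most on the log2 scale with a mean of 10 CPM or more, and the 5 genes most like the member with most counts. Alternatives were other scalings, filters, tests and prior counts, the replicate number as a block, and each library left out.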

Additional observations from a re-analysis of the deposited data

How the results depend on the processing

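The summed kallikreins and their ratio to Spink5 stayed higher in cKO in every alternative run for them. Their log2 ratios ran from 0.65 to 2.81 and from 1.13 to 1.92 when single libraries were left out, the highest without control replicate 2. The numbers of genes called higher and lower were 49 and 26 without a count filter, 43 and 17 at an adjusted p of 0.1, 12 and 3 with limma-voom, and 34 to 59 and 8 to 34 with a library left out. A mean of at least 10 CPM and library totals each gave 15 lower genes. Related genes called higher were 4 without a filter, 1 with limma-voom and 2 to 4 with a library left out, and those called lower 0 to 1.

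The differences between replicates 1 and 2 of each group were not positively correlated across genes (-0.20). With 1 difference per group this cannot tell whether libraries of the same number were handled as pairs. With the replicate number as a block 16 genes were higher and 1 lower, and 1 related gene was higher; Casp14 lost its call (edgeR adjusted p 0.0522). With crossed numbers, a block chosen after seeing the data, the counts were 90, 57, 6 and 2 (related genes last). Among genes that were not called, the log2 change changed sign for Smpd1 with the replicate block (0.04). With single libraries left out it ran from -0.08 to 2.51 for Dsc1, from -1.07 to 0.08 for Dsg1c and from -1.79 to 0.29 for Smpd1. The causes were not tested. Depth limits single counts most in cKO replicate 2.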
